A study of Mus musculus with 26 samples.

Results

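The cells described here were sorted from mouse fetal ovaries as reporter-positive, yet they held transcripts of Anxa5, which codes for annexin A5, a phosphatidylserine-binding protein. Anxa5 (chromosome 3, 36448923 to 36475894, minus strand, GRCm38/mm10) was common in the Negative gate and low in most reporter-positive cells. A reporter-positive cell was counted as Anxa5-high when Anxa5 reached 100 CPM, that is, 100 unique molecular identifiers (UMIs) per 1000000 of the cell's UMIs that fell in the genes analysed here. Of 1352 reporter-positive cells, 79 met this limit (5.84%, exact binomial 95% interval 4.65% to 7.23%), among 1881 cells in all. The other 1273 reporter-positive cells and the 529 Negative-gate cells were set beside them. Intervals of this kind cover counting error only.

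The mice carried a transgene pair abbreviated BVSC, in which mVenus reports Blimp1 (Prdm1) and ECFP reports Stella (Dppa3). Female gonads of several embryos per stage, E11.5 to E18.5, were combined, digested with trypsin and sorted, and cells were picked by mouth into barcoded reactions of a modified STRT-seq protocol that counts the 3' ends of polyadenylated RNA. The 26 libraries are numbered 1 to 26 here. All cells came from this 1 genotype, with no treated group, and the gates were BVSC (1302 cells), BV (50 cells) and Negative (529 cells). What BV required of the second reporter, and whether 2 libraries of 1 stage used different embryos, is not stated in any source used here. The p-values thus reflect variation among libraries alone, and that variation could be technical. The values cover 16344 genes on chromosomes 1 to 7, 10 and X and the start of 8, which in the median cell held 51.2% of all deposited UMIs (40.1% to 56.4%). Genes elsewhere were not analysed here.

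In the fetal ovary, germ cells divide into cysts, enter meiosis and lie in close contact with pregranulosa cells, the supporting cells that later enclose each oocyte in a follicle. Other somatic cells include the stroma, which makes collagen and decorin, the surface epithelium, vessels, and macrophages, which clear dying cells. Blimp1 and Stella are early germ cell proteins, and Wt1, Nr5a1 and Lhx9 code for transcription factors of gonadal somatic cells. Mael codes for a protein of the germ cell piRNA pathway, and Sycp3 for a part of the synaptonemal complex that joins meiotic chromosomes.

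The libraries did not contribute evenly. All 19 libraries with reporter-positive cells held at least 1 Anxa5-high cell. Libraries 20 and 22, both of E16.5, held 22 of 96 (22.9%) and 11 of 92 (12.0%), which together were 33 of the 79 cells. Without both, the share was 46 of 1164 (3.95%). By stage the share was 4.35% at E11.5 (6 of 138), 2.10% at E12.5 (3 of 143), 5.16% at E13.5 (8 of 155) and 3.66% at E14.5 (12 of 328). It was 6.21% at E15.5 (10 of 161), 17.6% at E16.5 (33 of 188, interval 12.4% to 23.8%), 3.52% at E17.5 (5 of 142) and 2.06% at E18.5 (2 of 97). The E16.5 interval lay above those of the other 7 stages, but it pools the cells of 2 libraries and leaves out variation between them. The interval of library 20 alone also lay above those 7. That of library 22 alone (6.12% to 20.4%) overlapped all of them but E12.5, as at E15.5 (3.02% to 11.1%). A difference between stages was not tested across libraries. Library 2 also stood apart, with 4 of its 5 BV cells, all rich in macrophage transcripts. By gate, the share was 8 of 50 for BV (16%) and 71 of 1302 for BVSC (5.45%). Median UMIs per cell were 203724 in the Anxa5-high group, 249817 in the other reporter-positive group and 169412 in the Negative gate.

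**Figure D1:**
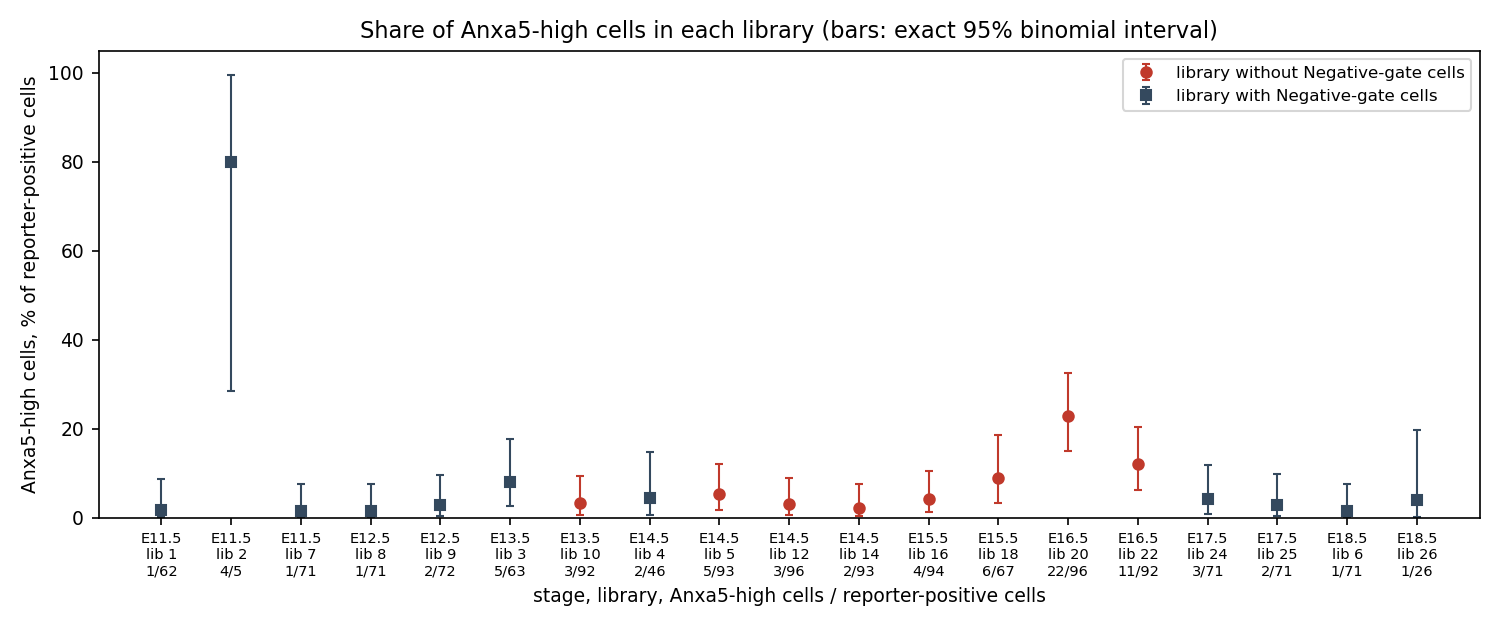
Anxa5-high cells as a percent of the reporter-positive cells of each library, in order of stage, with exact 95% binomial intervals; the counts stand under each library. Circles are libraries without Negative-gate cells and squares libraries with them. Libraries 20 and 22 (E16.5) reached 22.9% and 12.0%, and library 2 (5 cells) 80%.

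Cell names at E13.5 to E16.5 carry a letter, P, C or D, whose meaning is not given in the sources used here. At E16.5 the Anxa5-high share was 31.7% for P (20 of 63), 17.7% for C (11 of 62) and 3.17% for D (2 of 63). In library 20 the counts were 14 of 32, 8 of 32 and 0 of 32, and in library 22 they were 6 of 31, 3 of 30 and 2 of 31. The 0 of 32 allows up to 9.38%, taken as 3 cells of 32, and up to 10.9% by the exact interval. P was highest and D lowest in both libraries. At E14.5 the shares were 4.55%, 4.55% and 1.85%, and at E15.5 8.11%, 6.56% and 4.76%. At E13.5 they were 6.78%, 6.25% and 0% (0 of 32, with the same limits). At each of these stages the intervals overlapped. No test across libraries was run.

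Of the 79 Anxa5-high cells, 56 came from libraries that held no Negative-gate cell. In the 8 libraries without a Negative-gate cell, 56 of 723 reporter-positive cells (7.75%) were Anxa5-high, against 23 of 629 (3.66%) in libraries that held both gates. Libraries 20 and 22 were among the 8, and without them the share there was 23 of 535 (4.30%). Cell barcodes come from a set of 96 numbers that libraries reuse. A barcode number also used by a Negative-gate cell of the same stage in another library was carried by 17 of the 79 Anxa5-high cells (21.5%), against 477 of the other 1273 (37.5%). By stage the counts were 5 of 33 against 88 of 155 at E16.5, 6 of 10 against 88 of 151 at E15.5, 6 of 12 against 248 of 316 at E14.5, 0 of 8 against 33 of 147 at E13.5 and 0 of 6 against 20 of 132 at E11.5. At E12.5, E17.5 and E18.5 both were 0.

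Only Anxa5 chose the cells, and its levels are given as a description. The median was 319 CPM in Anxa5-high cells (highest 2098), against 4.37 CPM in other reporter-positive cells and 586 CPM in Negative-gate cells. Of the Negative-gate cells, 90.9% reached the limit, between 75% at E18.5 and 97.8% at E16.5. A total of 74 of the 79 cells had at least 5 Anxa5 UMIs and 3 cells had at most 2. The 5 cells just inside the limit had 100 to 111 CPM. Of the germ and somatic list limits described below, 4 of them passed the germ limit alone, with somatic sums of 78.6 to 144 CPM. The 5 just outside had 92.1 to 99.3 CPM, and 1 of them passed both list limits.

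Not all of the 79 cells had somatic transcripts above a limit set from their neighbours. The summed CPM of 20 germ cell genes and of 30 gonadal somatic genes (early gonadal, pregranulosa and stroma) were read in each cell. The germ limit was the 95th percentile of the Negative-gate cells of the stage, the somatic limit that of the other reporter-positive cells, and cells with 1000 CPM or more of 11 macrophage genes were kept apart. Both limits were passed by 38 Anxa5-high cells (48.1%), from 11 libraries. The germ limit alone was passed by 20, the somatic limit alone by 13, and 8 were macrophage-rich. The 20 cells were not above the somatic limit of their stage, which does not show that somatic transcripts were absent from them. Within 10% of a limit lay 4 cells for the germ list and 1 for the somatic list. Among other reporter-positive cells the germ limit alone was passed by 1197 of 1273 and both by 62. Among Negative-gate cells the somatic limit alone was passed by 490 of 529 and both by 26. Each limit was a 95th percentile of 1 of these groups, so the counts of 62 and 26 were largely set in advance. They are not measured background rates. These ranges are not cell types.

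**Figure D2:**
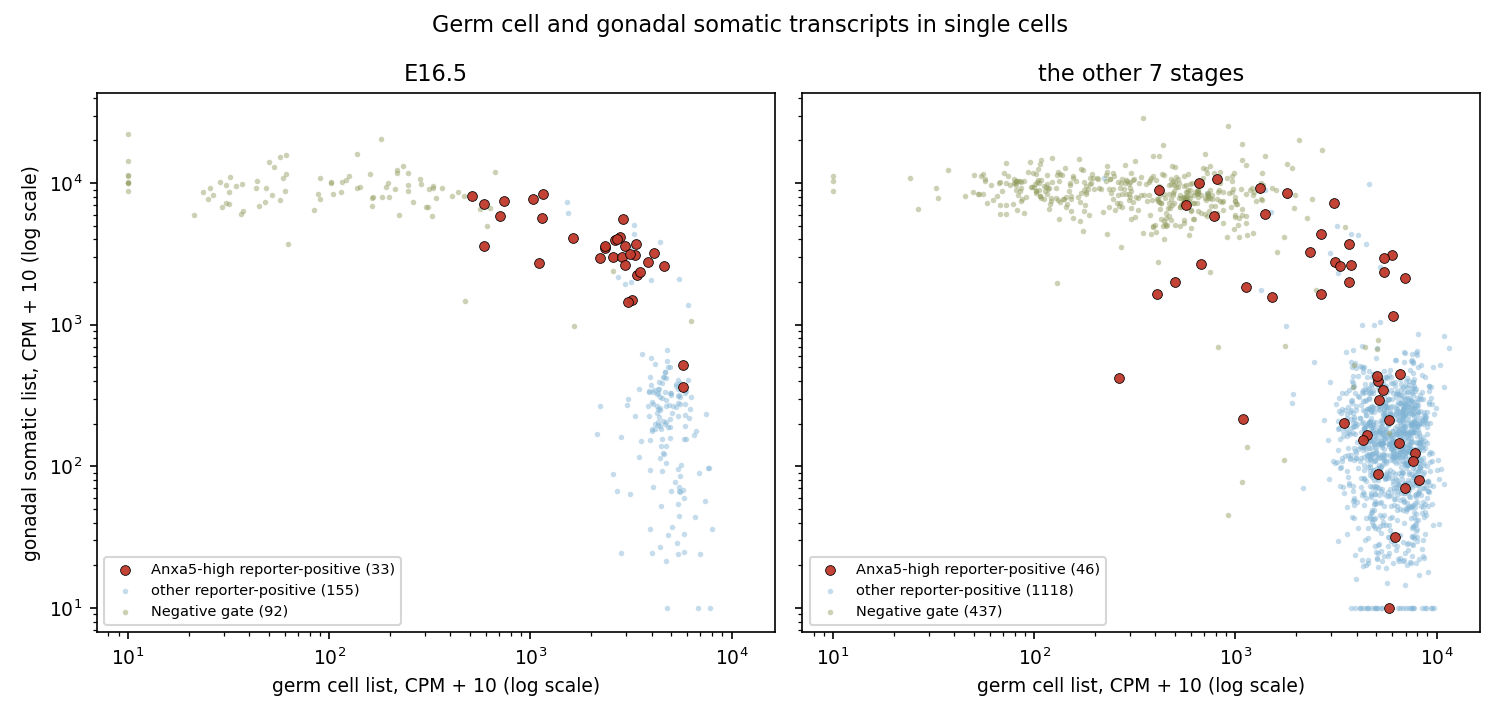
Summed CPM of the germ cell list (x) and the gonadal somatic list (y) in each cell, both on log scales after adding 10, at E16.5 (left) and at the other 7 stages (right). At E16.5, 25 of 33 Anxa5-high cells lay in the upper right, between the other reporter-positive cells and the Negative gate; at the other stages they were spread over all 3 regions, with 13 of 46 above both limits.

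The mix differed by stage. At E16.5, 25 of the 33 Anxa5-high cells passed both limits, 4 the germ limit, 3 the somatic limit and 1 was macrophage-rich. At the other 7 stages the same counts were 13, 16, 10 and 7 of 46. The 25 cells of E16.5 had medians of 2772 CPM for the germ list and 3478 CPM for the somatic list. The 13 cells that passed the somatic limit alone had medians of 770.5 CPM and 7080 CPM, beside 301 and 8472 CPM in the Negative gate. The 20 cells that passed the germ limit alone had medians of 5557 CPM and 173 CPM, beside 5801 and 140 CPM in the other reporter-positive cells. Their somatic sums differed by stage. At E16.5 the median of the 4 such cells was 968 CPM, against 214 CPM in other reporter-positive cells that passed the germ limit alone. The median was also higher than in such cells at E13.5, E14.5 and E17.5, and lower at E11.5 and E15.5.

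Single genes of both kinds were read in the same cells. Mael and Wt1 each reached 100 CPM in 45 of 79 Anxa5-high cells (57.0%), against 23 of 1273 other reporter-positive cells (1.81%) and 107 of 529 Negative-gate cells (20.2%). At E16.5 this held for 28 of 33 Anxa5-high cells, against 10 of 155 and 12 of 92. Sycp3 and Wt1, a stricter pair for the Negative gate, were both at 100 CPM in 19 of 33 Anxa5-high cells of E16.5, against 8 of 155 other reporter-positive cells and 2 of 92 Negative-gate cells. Over all stages, Kitl, which codes for the pregranulosa ligand of the germ cell receptor Kit, had a UMI in 67 of the 79 cells and Mael in 76. The share of cells with a UMI depends on depth, and Mael had a UMI in 404 of 529 Negative-gate cells, where its median was 28.3 CPM against 563 CPM in Anxa5-high cells.

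Each cell was also described as a sum of 2 mean profiles of its stage, other reporter-positive and Negative-gate. The weights came from non-negative least squares over all genes but Anxa5. For cells of these 2 groups, the cell's own library was left out of both profiles. For Anxa5-high cells no library was left out, so their fits were not fully alike those of the other groups. The weight of the Negative-gate profile is called the somatic share. Its median was 44.6% in Anxa5-high cells, and 43 of 79 lay between 20% and 80%, against 48 of 1273 other reporter-positive cells (3.77%) and 97 of 529 Negative-gate cells (18.3%). Over genes that differ at least 5-fold between the profiles the median in Anxa5-high cells was 41.3%, with quartiles of 28.9% and 76.9%. Of the 79 cells, 42 (53.2%) lay between 20% and 80%, 18 under and 19 over. Among other reporter-positive cells 31 of 1273 (2.44%) lay between, and among Negative-gate cells 50 of 529 (9.45%). Of these 50, 31 were of E13.5, where Negative-gate cells had a median of 41.4%. There the fit for the 31 Negative-gate cells of library 3 rested on 2 Negative-gate cells of library 11. The 5 Anxa5-high cells of library 3 were fitted with the Negative-gate cells of library 3 included. Without E13.5 the counts were 40 of 71 Anxa5-high cells (56.3%), 31 of 1126 other reporter-positive cells (2.75%) and 19 of 496 Negative-gate cells (3.83%). At E16.5, 24 of 33 Anxa5-high cells lay between on the 5-fold genes, with a median of 48.4%. Macrophages have no profile of their own in this fit, so the 8 macrophage-rich cells (median 79.8%) are not described by it.

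**Figure D3:**
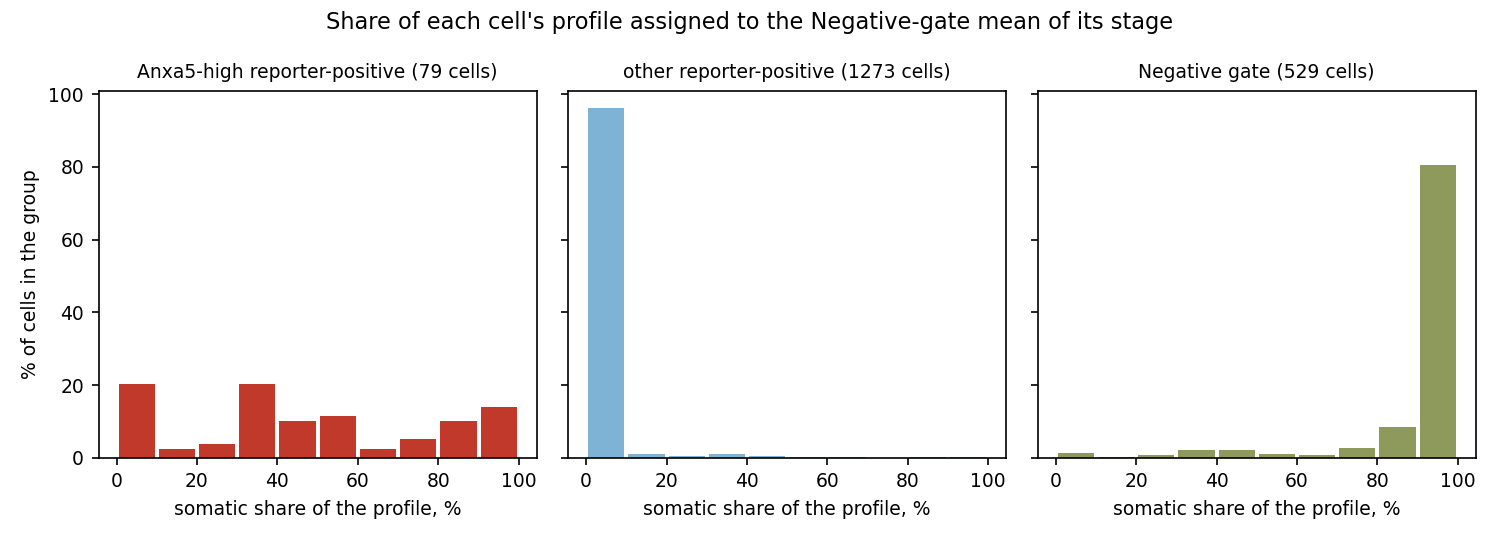
Distribution of the somatic share over 5-fold genes, in percent, in Anxa5-high reporter-positive, other reporter-positive and Negative-gate cells; bars give the percent of each group's cells per 10-point bin. Most other reporter-positive cells sit near 0 and most Negative-gate cells near 100, except those of E13.5 (median 41.4%), while 42 of 79 Anxa5-high cells lie between 20% and 80%. A cell's own library was left out of the profiles for other reporter-positive and Negative-gate cells, but not for Anxa5-high cells.

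UMI totals and gene numbers were compared within libraries. A cell's UMIs in the genes analysed are the denominator of CPM, so depth was part of the Anxa5 limit. A cell with few UMIs passed it with fewer Anxa5 UMIs. The p-value for UMI totals is thus not independent of the choice of cells. The comparison used the 9 libraries with at least 3 Anxa5-high and 3 other reporter-positive cells. Library 2, with 1 other reporter-positive cell, was left out. The mean log2 ratio of median UMIs, Anxa5-high over other reporter-positive, was -0.58 ± 1.11 (SD, n = 9; two-sided exact sign-flip permutation p = 0.137). It was below 0 in 6 of 9. Library 12 carried much of it, with medians of 29907 UMIs in 3 Anxa5-high cells and 265279 UMIs in 93 other reporter-positive cells, and without it the mean was -0.26. With each cell thinned to 30000 UMIs of the genes analysed, the log2 ratio of genes detected was 0.05 ± 0.098 (SD, n = 7; exact sign-flip permutation p = 0.219). Thinning left out 10 of the 79 cells and 80 of the 1273.

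For the cells above both limits at E16.5, median totals were 209817 UMIs in 16 cells of library 20, against 194158 in its other reporter-positive cells. In library 22 they were 137633 UMIs in 9 cells, against 140823. Negative-gate cells of E16.5 had 178384. Genes detected at 30000 UMIs were 3858 and 3583 in the cells above both limits, against 3768 and 3249 in the other reporter-positive cells of libraries 20 and 22 and 3140 in the Negative gate. Single cells above both limits at E16.5 ranged over 14215 to 343189 UMIs, far more widely than the medians differed.

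To compare groups over libraries, UMIs were summed per library, stage and group into pools, each of 3 cells or more. There were 10 Anxa5-high pools (66 cells, 159121 to 2254451 UMIs) and 13 Negative-gate pools of the same stages. A pool average does not tell a change in every cell from a change in the mix of cells. Anxa5-high pools were higher than Negative-gate pools for 518 of 5957 genes (8.7% of those tested) and lower for 694 (11.7%), by edgeR's quasi-likelihood test with stage as a covariate and a Benjamini-Hochberg adjusted p under 0.05. With upper-quartile scaling the split was 394 higher and 866 lower, and the median log2 difference over all genes was -0.21 in place of -0.07. Of the 10 Anxa5-high pools, 7 came from libraries without a Negative-gate pool, where library and gate cannot be told apart. With library as a block over the 3 libraries that held both, edgeR called 0 genes, with 312 at an unadjusted p under 0.05.

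Germ cell genes were higher in Anxa5-high pools than in the Negative gate, which is the contrast that the sort itself made. All 11 tested meiosis genes were called higher, with a median log2 difference of 3.26 against -0.07 over all genes tested. Sycp1, of the synaptonemal complex, averaged 1099 ± 877 CPM in Anxa5-high pools and 148 ± 222 CPM in Negative-gate pools (SD, n = 10 and 13; log2 3.56, SE 0.56, adjusted p = 0.000159 by edgeR). Hormad1, of the meiotic chromosome axis, and Stra8, which is needed for meiotic entry, had log2 differences of 3.68 and 3.63. Of the 15 tested germ identity genes, 12 were called higher, with a median of 3.08. Sall4, a zinc finger factor of germ and stem cells, averaged 149 CPM in Anxa5-high pools and 12.1 CPM in Negative-gate pools (log2 4.88), and Tdrd12, of the piRNA pathway, 70.4 CPM and 4.3 CPM. Mael averaged 633 ± 362 CPM and 90.4 ± 111 CPM (log2 3.08), and Dppa3 was at log2 3.89. Of 3 oocyte genes, Figla (log2 3.20) and Taf7l (log2 2.59) were called higher.

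Somatic genes were lower than in the Negative gate, by unequal amounts. All 6 early gonadal genes were called lower, with a median log2 difference of -2.33. Wt1 averaged 282 ± 184 CPM in Anxa5-high pools and 937 ± 191 CPM in Negative-gate pools (log2 -2.0, SE 0.36). Lhx9 averaged 63.0 ± 48.1 CPM against 555 ± 197 CPM (log2 -3.16). Neither gene's pools overlapped between the groups. Of 13 stromal genes, 12 were called lower, at a median of -3.64. Tcf21, a transcription factor that is also on the early gonadal list, averaged 1.4 CPM in Anxa5-high pools and 126.5 CPM in Negative-gate pools (log2 -6.63). The extracellular matrix genes Lum and Col1a2 and the growth factor receptor gene Pdgfra had log2 differences of -5.18, -4.55 and -4.64.

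Of 11 pregranulosa genes, 9 were called lower, with a median log2 difference of -2.05. The cystatin genes Cst9 (log2 -3.61) and Cst8 (-2.96), the R-spondin receptor gene Lgr5 (-3.51) and the nuclear receptor gene Nr0b1 (-3.25) were furthest down. Kitl averaged 536 ± 399 CPM in Anxa5-high pools and 1111 ± 220 CPM in Negative-gate pools (log2 -1.22, SE 0.31, adjusted p = 0.00648 by edgeR). Of 4 surface epithelium genes Upk3b (log2 -4.55) and Podxl (-2.14) were called lower. Of 3 tested endothelial genes Kdr, a VEGF receptor, was called lower (log2 -4.17), and of 3 erythroid genes Gata1, a transcription factor of that lineage (-3.35). None of the 11 macrophage genes was tested, being too low in most pools. No test of one list against another was run.

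Other lists were also read against the 8.7% and 11.7% above. Of 15 imprinted genes, 7 were called lower and 1, Phlda2 (log2 2.21), higher. Mest, a maternally imprinted gene, had 54.1 ± 70.1 CPM in Anxa5-high pools and 458 ± 130 CPM in Negative-gate pools (log2 -4.12). Cdkn1c, a cell cycle inhibitor gene, was at log2 -1.67. Of 13 glycolysis genes, 5 were called lower, among them Hk2, hexokinase 2 (log2 -1.45), and Ldha, lactate dehydrogenase A (log2 -1.10), whose pools did not overlap. Of 11 apoptosis and checkpoint genes, 4 were called higher: Bax, Bcl2l1, Mdm2 and Diablo. None of 7 immediate early genes was called, at a median log2 of -0.54. Of 7 tested genes for the uptake of dying cells, Mfge8 (log2 -1.46), which bridges phosphatidylserine to phagocytes, and Gulp1 (-4.16) were called lower.

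Pools that did not overlap between the groups, with a mean of at least 20 CPM in one, numbered 4 called genes above (0.0671% of those tested) and 37 below (0.621%). The 4 were Gclm, Lamp1, Mdm2 and Vps26a. Gclm, a subunit of the enzyme that limits glutathione synthesis, averaged 272 ± 144 CPM in Anxa5-high pools and 67.0 ± 17.98 CPM in Negative-gate pools (log2 2.03, SE 0.28). Lamp1 codes for a lysosomal membrane protein (log2 1.82), Mdm2 for the ligase that holds p53 down (log2 1.34), and Vps26a for a retromer subunit (log2 1.12). Lamp1 was highest in the pools of libraries 12 and 2 (528 and 367 CPM), both with macrophage-rich cells. In other reporter-positive pools the medians were 303 CPM for Gclm, 188 CPM for Lamp1, 262 CPM for Mdm2 and 539 CPM for Vps26a.

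Of the 10 genes furthest below the Negative gate, 8 averaged under 10 CPM in Anxa5-high pools, while Mest and Gpc3 averaged 54.1 CPM and 89.9 CPM. Capn6 had 2 UMIs over all 10 Anxa5-high pools, both in library 20, against 46.7 ± 30.7 CPM in Negative-gate pools, and no fold is given for it. Sparcl1, an extracellular matrix gene, had 0 to 25.01 CPM in Anxa5-high pools and 80.4 to 365 CPM in Negative-gate pools (log2 -6.00, SE 0.53). Hoxd9 (log2 -5.74) codes for a homeobox factor, and Hoxd3os1 (log2 -4.42) is an antisense gene whose reads may be those of its partner. Fah (log2 -4.75) codes for an enzyme of tyrosine breakdown, and Gpc3 (log2 -3.41) for a glypican that had 9.17 to 187 CPM in Anxa5-high pools and 476 to 1966 CPM in the Negative gate. Stk26, 2610028E06Rik, Mest and Ntng1 were also among the 10, at log2 -4.40, -4.34, -4.12 and -3.68.

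Ramp1, Crygb and Ptgds had been proposed with Anxa5 as marks of these cells. Ramp1 (chromosome 1, 91179822 to 91225196, plus strand) codes for a partner of the calcitonin receptor-like receptor. It had a UMI in 34 of 79 Anxa5-high cells. In the 10 pools, ordered by library 2, 3, 5, 10, 12, 16, 18, 20, 22 and 24, Ramp1 had 0, 0, 0, 38.0, 0, 290.9, 12.96, 266, 139 and 475 CPM. It was high in 1 of the 2 E15.5 pools, in both E16.5 pools and in the E17.5 pool, and at 0 in 4 of 10.

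Crygb (chromosome 1, 65080219 to 65082288, minus strand), a lens crystallin gene with close relatives whose reads may not be separated, had a UMI in 27 cells, and its pools ranged over 0 to 491 CPM. Ptgds (chromosome 2, 25466709 to 25470046, minus strand), prostaglandin D synthase, had a UMI in 41 cells and 330.0, 333 and 501 CPM in the pools of libraries 20, 22 and 24, against at most 50.3 CPM in the other 7. Against the Negative gate, differences were log2 1.39 (SE 0.82, adjusted p = 0.245) for Ramp1, -0.01 (SE 0.59, adjusted p = 0.995) for Crygb and -1.05 (SE 0.97, adjusted p = 0.485) for Ptgds by edgeR. None passed the threshold, and their signs changed under some settings. Before E15.5 no Anxa5-high pool had more than 50.3 CPM of any of the 3.

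The reporter gene Dppa3 had a UMI in 58 of 79 Anxa5-high cells, and its level varied with stage and library in every group. In the 9 libraries with pools of both kinds, the Anxa5-high pool was below the other reporter-positive pool in 6 and above it in 3. In library 10 (E13.5) the pools had 1306 CPM for Anxa5-high cells and 1671 CPM for other reporter-positive cells. In library 18 (E15.5) they had 1028 CPM and 885 CPM, and in library 16, of the same stage, 0 CPM and 43.7 CPM. At E16.5 the cell medians were 5.60 CPM in Anxa5-high cells, 6.76 CPM in other reporter-positive cells and 0 CPM in Negative-gate cells. The reporter gene Prdm1 had a UMI in 26 of 79 Anxa5-high cells, 764 of 1273 other reporter-positive cells and 74 of 529 Negative-gate cells, and at E16.5 in 3 of 33, 16 of 155 and 3 of 92. Xist, a noncoding RNA of X inactivation that overlaps an antisense gene, had a median at E16.5 of 113 CPM in Anxa5-high cells, 8.32 CPM in other reporter-positive cells and 342 CPM in Negative-gate cells. Over all stages its medians were 54.8, 0 and 285 CPM in the same order.

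Against other reporter-positive cells, from which Anxa5 separates the Anxa5-high cells by the choice made, values are a description. With an adjusted p under 0.05 used only as a cut-off, the edgeR fit put 666 of 7410 genes higher (8.99%) and 779 lower (10.5%). These counts are not independent of the choice of cells. The median log2 difference was -0.24 over all genes. DESeq2 put 1125 higher and 797 lower, with a median of -0.07. Kitl averaged 536 CPM in Anxa5-high pools and 26.7 CPM in other reporter-positive pools, Wt1 282 CPM and 17.9 CPM, and Col3a1 168 CPM and 15.2 CPM. The immediate early genes Jun (1103 CPM and 81.2 CPM) and Atf3 (446 CPM and 14.3 CPM) and the imprinted H19 (660 CPM and 78.1 CPM) followed the same order. All 13 meiosis genes had a log2 difference below 0, at a median of -1.10, and 10 of them passed the cut-off.

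E16.5 held the most Anxa5-high cells and allowed a closer description, with 2 pools in each group. The Anxa5-high and other reporter-positive pools came from libraries 20 and 22, the Negative-gate pools from libraries 21 and 23. Of 219 genes that were at least 5-fold higher in other reporter-positive pools than in the Negative gate, 192 (87.7%) lay between the groups in both Anxa5-high pools. Their median position was 50.1% of the way between the groups, with quartiles of 40.9% and 59.0%. Of 658 genes at least 5-fold higher in the Negative gate, 434 (66.0%) lay between, at a median of 39.1% of the way to the Negative gate and a wider spread, with quartiles of 21.6% and 60.04%.

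The germ cell lists lay 52.3% to 62.0% of the way from the Negative gate to the other reporter-positive pools, and the somatic lists at unequal distances. The meiosis list summed to 6227 and 5072 CPM in Anxa5-high pools, 9487 and 9355 CPM in other reporter-positive pools and 646 and 27.3 CPM in Negative-gate pools. The pregranulosa list summed to 1978 and 2293 CPM in Anxa5-high pools, 306.7 and 103 CPM in other reporter-positive pools and 3825 and 3251 CPM in the Negative gate, which is 57.9% of the way to the Negative gate. The stromal list, at 953 and 998 CPM, 166 and 95.9 CPM, and 3314 and 3791 CPM in the same order, was 24.7% of the way.

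Transcripts of vessels and blood were low in Anxa5-high pools of E16.5. The endothelial list summed to 51.9 and 50.5 CPM in Anxa5-high pools, 25.2 and 19.2 CPM in other reporter-positive pools and 273 and 214 CPM in the Negative gate (13.1% of the way). The macrophage list summed to 47.9 and 7.57 CPM, 16.9 and 6.80 CPM, and 689 and 554 CPM (2.61% of the way). The erythroid list was lower in the Anxa5-high pool than in the other reporter-positive pool of the same library. It summed to 106 against 132 CPM in library 20 and to 25.2 against 36.8 CPM in library 22. The surface epithelium list was 13.9% of the way and the early gonadal list 28.3%. Imprinted and immediate early genes were 76.0% and 67.8% of the way.

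**Figure D4:**
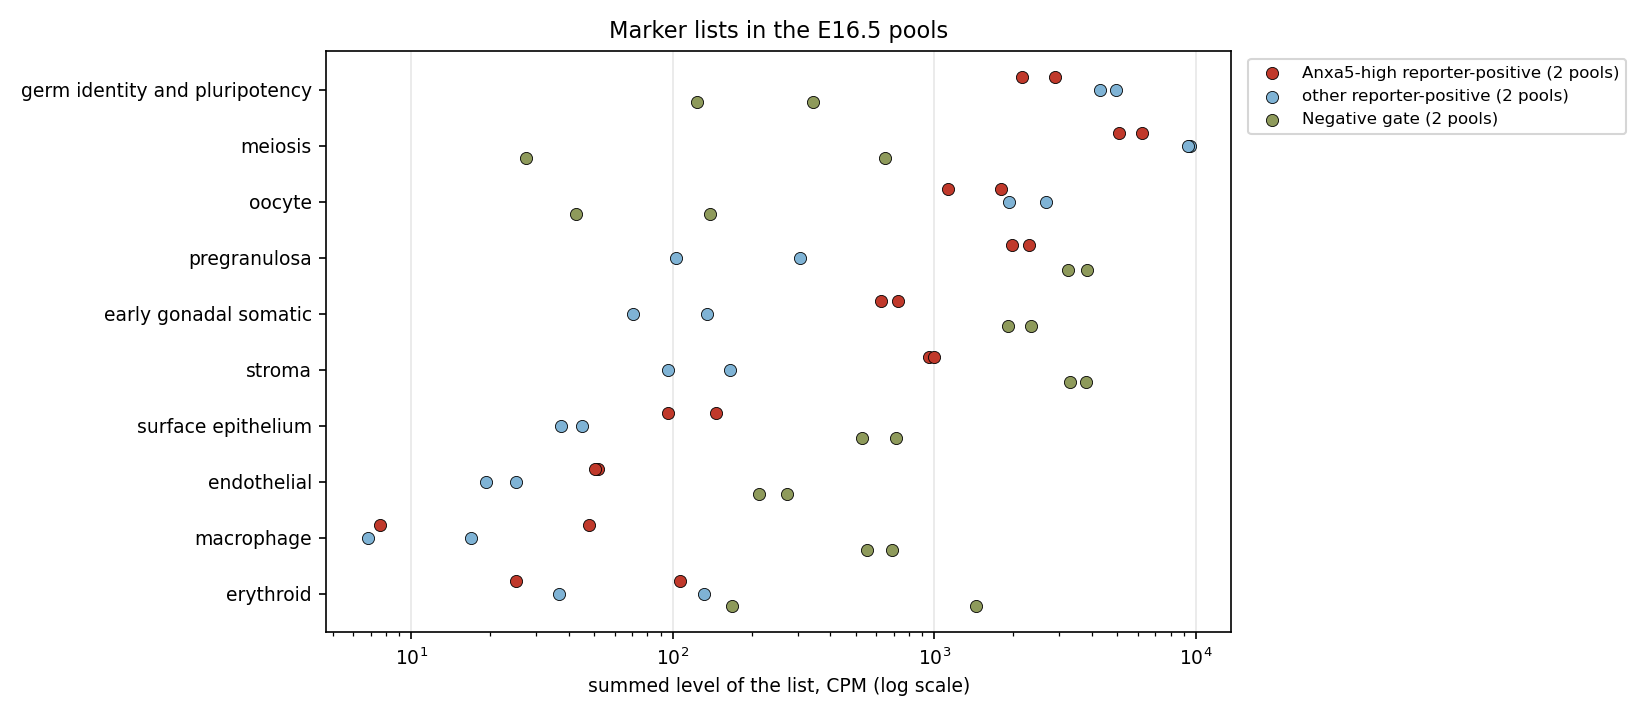
Summed CPM of marker lists (log scale) in the 2 Anxa5-high, 2 other reporter-positive and 2 Negative-gate pools of E16.5; each point is a pool. Anxa5-high pools lie between the other groups for the germ cell and pregranulosa lists (pregranulosa 1978 and 2293 CPM, against 306.7 and 103 CPM in other reporter-positive pools and 3825 and 3251 CPM in the Negative gate), and by the other reporter-positive pools for macrophage and erythroid genes.

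The genes named here for E16.5 were chosen because the Anxa5-high pools lay outside both other groups. Of 5825 genes tested in both fits, both Anxa5-high pools were above all 4 other pools for 214 (3.67%) and below all 4 for 270 (4.64%). Nothing is read from these small shares, and the genes are given as a description. Hsd17b7, an enzyme of cholesterol synthesis, had 236 and 178 CPM in Anxa5-high pools, 39.7 and 40.0 CPM in other reporter-positive pools and 28.9 and 52.4 CPM in Negative-gate pools. It reached 100 CPM in 19 of 33 Anxa5-high cells (57.6%), 14.8% of other reporter-positive cells and 13.04% of Negative-gate cells.

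Msx1, which codes for a homeobox factor, had 237 and 308 CPM in Anxa5-high pools, 51.6 and 10.8 CPM in other reporter-positive pools and 88.0 and 36.4 CPM in Negative-gate pools. Ramp1 was in the same set, with 266 and 139 CPM, 45.9 and 17.1 CPM, and 41.4 and 57.9 CPM. Col18a1, the gene of the collagen that yields endostatin, reached 100 CPM in 75.8% of Anxa5-high cells, 7.1% of other reporter-positive cells and 35.9% of Negative-gate cells. Also among those furthest above were Bcat1, Bbc3, Bcl2, Pla2r1 and Pcsk6.

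Among the 10 genes furthest below both groups were 4 of mitosis. Cdk1, the kinase that drives entry into mitosis, had 88.7 and 64.4 CPM in Anxa5-high pools, 227 and 280 CPM in other reporter-positive pools and 195 and 313 CPM in Negative-gate pools. Ube2c had 70.5 and 24.0 CPM, 143 and 182 CPM, and 281 and 399 CPM. Aspm and Plk1, of the spindle, followed the same order, at 40.4 and 42.9 CPM and at 19.96 and 11.4 CPM in Anxa5-high pools. Cdk1 reached 100 CPM in 27.3% of Anxa5-high cells, 75.5% of other reporter-positive cells and 53.3% of Negative-gate cells. No cell cycle list was fixed, and none was tested.

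**Figure D5:**
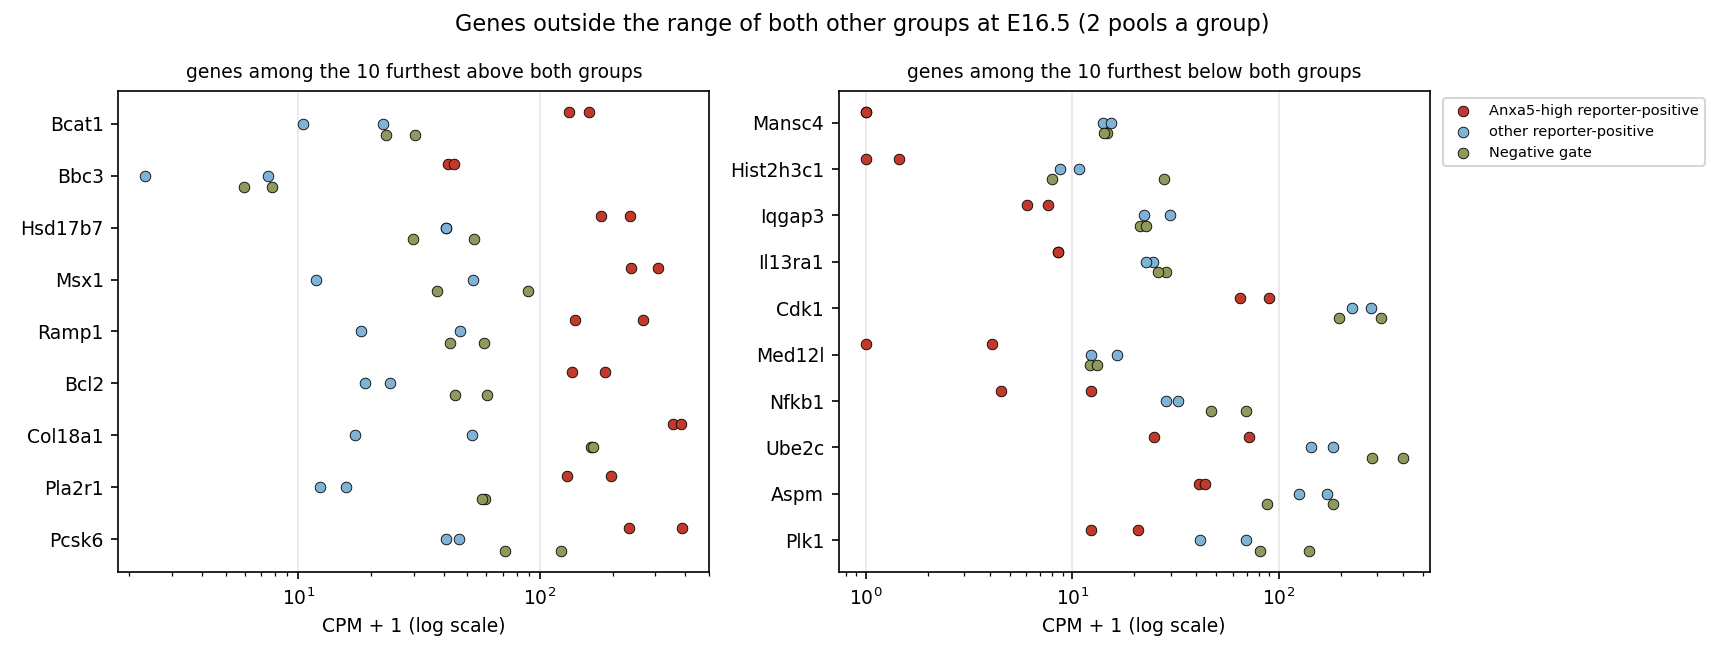
CPM + 1 (log scale) of genes among the 10 furthest above (left) and the 10 furthest below (right) both other groups at E16.5; each point is a pool, 2 per group. The genes were picked for this position, as with Hsd17b7 (236 and 178 CPM in Anxa5-high pools) and Cdk1 (88.7 and 64.4 CPM).

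Over all stages, the genes furthest above both groups were mostly those of a few cells. Ptpn18 averaged 221 ± 444 CPM in Anxa5-high pools, 15.2 CPM in other reporter-positive pools and 15.2 CPM in Negative-gate pools, with 1196 CPM in library 2. Spp1, osteopontin, reached 3746 CPM in library 12, and Arhgdib, Sirpa and Ctsc, all expressed in myeloid cells, were highest in library 2 or 12. Their place above both groups turned round without the 8 macrophage-rich cells for Ptpn18, Arhgdib, Sirpa and Ctsc. These 8 cells had 1505 to 34663 CPM of macrophage genes. The complement gene C1qb had a UMI in 11 of the 79 cells. The 4 in library 2 had 63.5 to 184 CPM of Dppa3, and Mael was at 0 in 2 of them.

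Gm10800 and Gm10801, predicted genes whose reads the counting may not separate, were also above both groups. Gm10800 reached 1000 CPM in 14 of 79 Anxa5-high cells (17.7%), 31 of 1273 other reporter-positive cells (2.44%) and 17 of 529 Negative-gate cells (3.21%). In pools its mean was 1341 ± 2758 CPM in the Anxa5-high group, with 9094 CPM in library 12. The median of the 3 Anxa5-high cells of library 12 was 29907 UMIs. However, 1 macrophage-rich cell held 265989 of the pool's 307973 deposited UMIs.

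Across stages, 7 late pools (E14.5 to E17.5) were compared with 3 early ones (E11.5 and E13.5, 1 of them the macrophage-rich pool of library 2). In the late pool of library 12, 1 macrophage-rich cell held 265989 of 307973 deposited UMIs. Only 3 of 5551 genes (0.054%) were called higher and 0 lower by edgeR, with 435 at an unadjusted p under 0.05. DESeq2 called 110, and edgeR called 1 without library 10 and 19 without library 12. The 3 were the germ cell genes Taf7l, Sycp2 and Tex101. Sycp2, of the synaptonemal complex, averaged 385 ± 274 CPM in late and 2.89 ± 2.98 CPM in early pools (SD, n = 7 and 3; log2 6.67, SE 1.11, adjusted p = 0.0384). Tex101 averaged 692 ± 383 CPM and 9.29 ± 8.05 CPM (log2 6.04, adjusted p = 0.00185). Taf7l averaged 703 ± 397 CPM in late pools and had 3 UMIs in early ones. Over 20 alternative settings the call was lost in 11 for Sycp2 (adjusted p by edgeR or DESeq2 of 3.83e-08 to 0.340), in 2 for Tex101 and in 0 for Taf7l.

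A late against early contrast was also fitted in the other groups, with pools of all 8 stages, E12.5 and E18.5 included, so the values stand beside those above without a comparison. In other reporter-positive pools (n = 12 late and 6 early) it gave log2 4.90 for Sycp2, 4.56 for Tex101 and 5.92 for Taf7l. In Negative-gate pools (n = 11 and 6) it gave 4.88, 4.34 and -0.47. Of the pregranulosa list, 0 of 9 genes were called by stage in Anxa5-high pools, at a median log2 of 0.07 beside 0.04 over all genes tested.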

How the data were processed

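Polyadenylated RNA of 1881 single cells was measured in 26 libraries. The deposited values are UMI counts per gene and cell, not normalized; the submitters' processing notes name CASAVA 1.8, STAR, Subread, featureCounts, UMI-tools and the build mm10, and the use of strand is not given in the sources used here. A last line that ended early was dropped. CPM was taken over the 16344 genes read. Gate and stage came from the cell annotation. No doublet caller was run. The Anxa5 rule, the gene lists and the tests were chosen with earlier results of these data known. Counts were summed per library, stage and group (pools of at least 3 cells) and tested with edgeR 4.0.16 (R 4.3.3; TMM, filterByExpr, quasi-likelihood, stage as covariate, Benjamini-Hochberg over all genes tested), after checks on simulated data; DESeq2 1.42.0 was an alternative. Sign-flip tests used Python 3.11.15 and SciPy 1.17.1. Positions are those of GENCODE vM21 on GRCm38. Genes named against the Negative gate were the 10 called genes furthest in each direction without overlap between pools at 20 CPM or more in one group, up to 4 members of each list with the largest differences, and the reporter and rule genes. By stage, the 5 called genes furthest in each direction were to be named; 3 were called. Genes furthest outside both groups over all stages were ranked on log2(CPM + 5), 10 a side. Mael, Kitl, H19, Jun, Atf3, Col3a1, Bax, C1qb and the E16.5 genes were added after their values were seen. An item among the E16.5 genes is not reported here.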

Additional observations from a re-analysis of the deposited data

Results flagged for a closer look

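Dixon's test at the 95% level was run on 47 sets. These were the 10 Anxa5-high pool values of a gene or list, and the log2 ratios of UMIs and of genes by library. In 12 sets, all of pool values, the highest pool stood apart. The test flags about 1 in 20 sets of normally distributed values. Many CPM sets here were skewed or held values of 0, and some shared genes, so the 12 are not read against that rate. Library 24 (E17.5, 3 cells) had 491 CPM of Crygb, where the next pool had 190.3, the same 491 CPM for the crystallin list, and 4613 CPM for the oocyte list, where the next had 1791. Library 2, the macrophage-rich pool of E11.5, had 793 CPM of Xist (next 314), 1009 CPM of the X inactivation list (next 499) and 2420 CPM of the erythroid list (next 106). Library 20 had 0.887 CPM of Capn6, all others 0, and 20.8 CPM of Fah (next 10.1). Library 3 had 25.01 CPM of Sparcl1 (next 5.05), library 12 had 18.9 CPM of Hoxd9 (next 4.76), library 18 had 386 CPM of the endothelial list (next 110), and library 5 had 138 CPM of the perivascular list (next 43.2). The part of the cell mix in these values was not tested.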

How the results depend on the processing

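Against the Negative gate, the count of called genes was 1028 to 1407 on leaving out each library in turn and 1025 to 1814 under 10 other settings. It was 348 at a limit of 200 CPM, 469 at E16.5 only, 803 with a replicate block by stage and deposited replicate, and 0 with library as the replicate block. Against other reporter-positive cells the fit gave 1445, with 1114 to 1600 on leaving out each library. It gave 783 and 593 with pools of at least 5 and 1 cells, 900 for cells with at least 5 Anxa5 UMIs, 853 with the replicate block and 524 at E16.5 only. By stage the count was 3, and 110 with DESeq2, 11 with no filter, 1 and 45 with pools of at least 5 and 1 cells, 62 at 200 CPM, 11 without macrophage-rich cells and 9 with at least 5 Anxa5 UMIs. Leaving out each library gave 1 (without library 10) to 19 (without library 12). A limit of 50 CPM took in 125 cells, 200 CPM 49, and CPM from the deposited UMI total 51. Leaving out each library, the UMI log2 ratio was -0.70 to -0.26 (exact p 0.0703 to 0.273) and the gene log2 ratio 0.03 to 0.07 (exact p 0.0938 to 0.438).

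Some log2 differences that were not called against the Negative gate turned round: Ramp1 with pools of at least 5 cells (-0.53), Crygb at 200 CPM (1.13), without macrophage-rich cells (0.15), at E16.5 (0.16) and on leaving out libraries (-0.36 to 0.22), Ptgds at E16.5 (0.43), and Xist at 200 CPM (0.12). Dppa3 against other reporter-positive cells did so without macrophage-rich cells (0.025). Of genes outside both groups, the log2 departure changed sign with pools of at least 5 cells for Ptpn18 (-0.36), Arhgdib (-1.98), Sirpa (-2.21), Man1c1 (-0.48) and Ctsc (-0.72). Without macrophage-rich cells it did for Ptpn18 (-0.29), Arhgdib (-2.45), Sirpa (-1.47) and Ctsc (-1.39). Pools of at least 1 cell turned Tatdn3 (-0.076), S100a16 (-0.60) and Shroom4 (-0.017), and Spp1 turned at 200 CPM (-0.88) and with at least 5 Anxa5 UMIs (-1.66). The cause was not tested. Library numbers name the libraries and pair nothing, so the block used libraries that held both groups. Small pools limit low genes: the smallest held 159121 UMIs, and 10 Anxa5-high cells had under 30000.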

Other observations

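Of the Anxa5-high cells, 11 had a UMI of Amh, 13 of Pax8, 12 of Upk3b and 32 of Dcn. Gm10801 reached 1000 CPM in 7 of 79 Anxa5-high cells (8.86%), 12 of 1273 other reporter-positive cells (0.943%) and 2 of 529 Negative-gate cells (0.378%).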
